A study of Mus musculus with 18 samples.

Results

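The 10 genes followed here encode parts of Toll-like receptor signalling and 2 of its cytokine products. They are Cd14, Ly86, Tlr2, Tlr4, Tlr7, Myd88, Nfkb1, Rela, Tnf and Il1b, taken by name as 10 of the 27297 gene rows, and each had a row of its own. They were measured in single sorted myeloid cells of the yolk sac and of the brain at 3 ages by MARS-seq, which counts transcripts from their 3' ends with molecular tags (UMIs). All mice were untreated and of the strain CX3CR1-GFP+ C57BL/6J, in which a fluorescent reporter marks cells that use the promoter of the fractalkine receptor gene. Cells of the yolk sac at embryonic day 12.5 (E12.5, 4 libraries, 671 cells) and of the brain at E12.5 (4 libraries, 718 cells) were sorted as CD45+CD11B+CX3CR1-GFP+. Cells of the brain at E18.5 (6 libraries, 992 cells) and of the adult brain (4 libraries, 631 cells, no age in days or weeks given) were sorted as CD45intCD11BintCX3CR1-GFP+. Age and gate therefore cannot be told apart between E12.5 and the later stages.

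Toll-like receptors recognise molecules of microbes or of damaged cells. Tlr2 and Tlr4 do so at the cell surface, Tlr7 in endosomes, and CD14 hands bacterial ligands to the surface receptors. Ly86 (MD-1) is the partner of the receptor-like protein RP105, which dampens the response to bacterial lipopolysaccharide in some cells. Most of these receptors signal through the adaptor MyD88 to NF-kB, a dimer whose classical form joins the products of Nfkb1 (p50) and Rela (p65). NF-kB then drives genes of inflammation, among them Tnf and Il1b, and also genes that limit the response. Microglia, the macrophages of the brain, are known for carrying many of these sensors while making little TNF or interleukin-1 beta at rest.

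Promoter sequence bears on these genes because several of them, among them Tnf, Il1b and Tlr2, are known NF-kB targets. RefSeq promoters (build GRCm38.p6) were matched for 6 of the 10 genes (Il1b, Ly86, Myd88, Rela, Tlr2 and Tnf), and the 250 bases before each start were searched on both strands for a core form of the NF-kB site, the letters GGGA and CC with any 4 bases between them, and for TGANTCA, the AP-1 site. Tlr2 and Rela each held 1 match to the NF-kB letters, at 172 and 217 bases before the start, and the other 4 genes held none. No AP-1 match was found in any of the 6. Of all 32851 promoter windows of the same length, 17.6% held the NF-kB letters and 6.75% the AP-1 letters, so 2 of 6 is a description and not a binding result. The windows of Tlr2 (chr3:83841609-83841858, minus strand) and Rela (chr19:5637291-5637540, plus strand) are printed 5' to 3' with the match in capitals, because these 2 windows held a match and both genes differed between ages in the brain. The Rela match reads on the opposite strand.
Tlr2: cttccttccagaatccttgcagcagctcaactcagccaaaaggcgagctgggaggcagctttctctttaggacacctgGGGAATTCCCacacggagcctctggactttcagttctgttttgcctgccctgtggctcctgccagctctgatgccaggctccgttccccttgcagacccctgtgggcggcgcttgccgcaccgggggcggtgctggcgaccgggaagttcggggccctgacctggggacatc
Rela: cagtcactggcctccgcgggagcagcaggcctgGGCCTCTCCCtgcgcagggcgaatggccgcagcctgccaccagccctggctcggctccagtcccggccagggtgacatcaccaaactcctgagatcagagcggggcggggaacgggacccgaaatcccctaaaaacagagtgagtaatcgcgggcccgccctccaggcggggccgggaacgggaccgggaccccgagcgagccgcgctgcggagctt

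The libraries held 74562 to 534219 UMIs each after wells with under 300 UMIs were left out, and the median per cell was 1511 in yolk sac, 1725 in E12.5 brain, 983 at E18.5 and 521 in the adult. Depth thus fell with age in the brain. All 12 microglial markers looked for, such as Tmem119, P2ry12 and the C1q genes, had at least 1 UMI in every group, which does not show that each was abundant there. The list takes in Cx3cr1, whose reporter was used for sorting. Together the 12 summed to 11411 to 12188 CPM (a gene's UMIs per 1000000 UMIs of its library) among yolk sac libraries and 20153 to 21489 in those of E12.5 brain. At E18.5 the sum was 39686 to 45339 CPM and in the adult 61139 to 63646 CPM. Markers of embryonic and border macrophages summed to 3821 to 6435 CPM in yolk sac and to at most 287 CPM elsewhere. Granulocyte precursor transcripts (Mpo, Elane, Prtn3 and Ctsg among 8 markers with a row) summed to 2495 to 9439 CPM in adult libraries, with S100a8, S100a9 and Ngp at 0 there, and to 429 to 1542 CPM in yolk sac, 230 to 1272 at E18.5 and 78.9 to 158 in E12.5 brain. Erythroid markers (6 with a row) summed to 189 to 4010 CPM among yolk sac libraries and to 11.2 to 149.96 among those of E12.5 brain, and ranged from 0 to 3070 CPM at E18.5 and 0 to 134 CPM in the adult. Both lists were thus higher in every yolk sac library than in any E12.5 brain library, as Cd14 and Myd88 were, and granulocyte precursor sums were also higher in every E18.5 library than in E12.5 brain. The part of erythroid RNA in these differences was not tested. UMIs of Mpo, Elane, Prtn3, Ctsg, S100a8, Camp and the monocyte marker Ly6c2 were counted together, and cells with 5 or more were left out. Without those cells, Cd14 and Myd88 were higher in yolk sac than in E12.5 brain by 1.24 and 0.96 on the log2 scale (edgeR adjusted p = 0.000547 and 0.00088), and Cd14 at E18.5 than at E12.5 by 1.65 (adjusted p = 2.85e-06). The cut took 5, 7, 5 and 18 cells from the yolk sac libraries, none from E12.5 brain and at most 9 from an E18.5 library. It could therefore move these values little. Cells with fewer such UMIs stayed in, and from 102 of 147 to 156 of 158 cells of an adult library held such a UMI. Of 4 monocyte markers with a row, Ccr2, Vcan and Plac8 were at 0 in the adult, and Ccr2 and Vcan were at 0 at E18.5. The adult sum of 0 to 1870 CPM was therefore all Ly6c2. It was highest in adult library 3, where Cd14 was also highest (1257 CPM). How Ly6c2 and Cd14 relate was not tested. The 36 wells left empty on purpose held 1008 UMIs in all, 2 of them from these genes (1 of Cd14 and 1 of Ly86). Each age carried a single subject number, and every plate gave 2 libraries. The p-values therefore measure the spread between libraries, which may be technical.

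Cd14, the co-receptor, showed the widest range over brain ages among the 6 genes abundant enough to test. Its level was 87.0, 88.0, 85.7 and 65.7 CPM in the 4 libraries of E12.5 brain. At E18.5 it ran from 149 over a median of 232 to 443 CPM in 6 libraries. In the adult it was 593, 736, 1257 and 925 CPM. Every library of a later age lay above every library of the earlier one. The means were 81.6 ± 10.7 CPM (SD, n = 4), 256 ± 103 CPM (n = 6) and 878 ± 287 CPM (n = 4). From E12.5 to E18.5 Cd14 rose by 1.62 on the log2 scale (SE 0.25, edgeR adjusted p = 4.53e-06), and from E18.5 to the adult by 1.81 (SE 0.22, adjusted p = 6.40e-08). The adult exceeded E12.5 brain by 3.43 (SE 0.26, adjusted p = 2.49e-13), an estimated 10.8-fold difference.

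Cd14 was also higher in yolk sac than in the brain at E12.5, where both tissues were sorted alike. The 4 yolk sac libraries reached 207, 185, 152 and 178 CPM (mean 181 ± 22.7, SD), all above the E12.5 brain libraries. The log2 fold change was 1.17 (SE 0.26, edgeR adjusted p = 0.00109). Within the sequencing batch that the groups share, yolk sac libraries 1 and 2 held 207 and 185 CPM and brain libraries 3 and 4 held 85.7 and 65.7 CPM. Yolk sac lay inside the range of E18.5 brain, and that pair of groups was not tested. In order of level, E12.5 brain was lowest, yolk sac and E18.5 brain overlapped, and adult brain was highest.

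Several measures moved with Cd14. Immediate early genes are switched on fast by stimuli and by tissue handling. Their 11 members summed to 376 to 468 CPM in E12.5 brain, 619 to 757 in yolk sac, 4017 to 5031 at E18.5 and 7263 to 9723 in the adult, and their part in the Cd14 result was not tested across libraries. Among adult cells thinned to 300 UMIs, Cd14 was found in 22.9% of 175 cells with a Fos UMI and in 23.0% of 456 cells without one. This split lies within the adult and cannot address the difference between ages. The adult libraries 2 and 3 held the most granulocyte precursor transcripts. Without them the Cd14 difference between adult and E18.5 was 1.51 on the log2 scale (adjusted p = 0.000128), and without every cell with 5 or more such UMIs it was 1.80 (adjusted p = 8.37e-08). With all libraries thinned to the smallest total it was 1.75 (adjusted p = 9.86e-09). The cut of cells took 5, 87, 48 and 2 cells from the adult libraries and left in those with fewer such UMIs. Cd14 was at 661 and 1112 CPM on the 2 adult plates, a ratio of 1.68. E12.5 brain shares no sequencing batch with the later ages. With batch as a covariate, which yolk sac libraries link, the differences of E18.5 and adult brain from E12.5 brain were 1.95 (adjusted p = 0.0125) and 3.76 for Cd14.

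**Figure D1:**
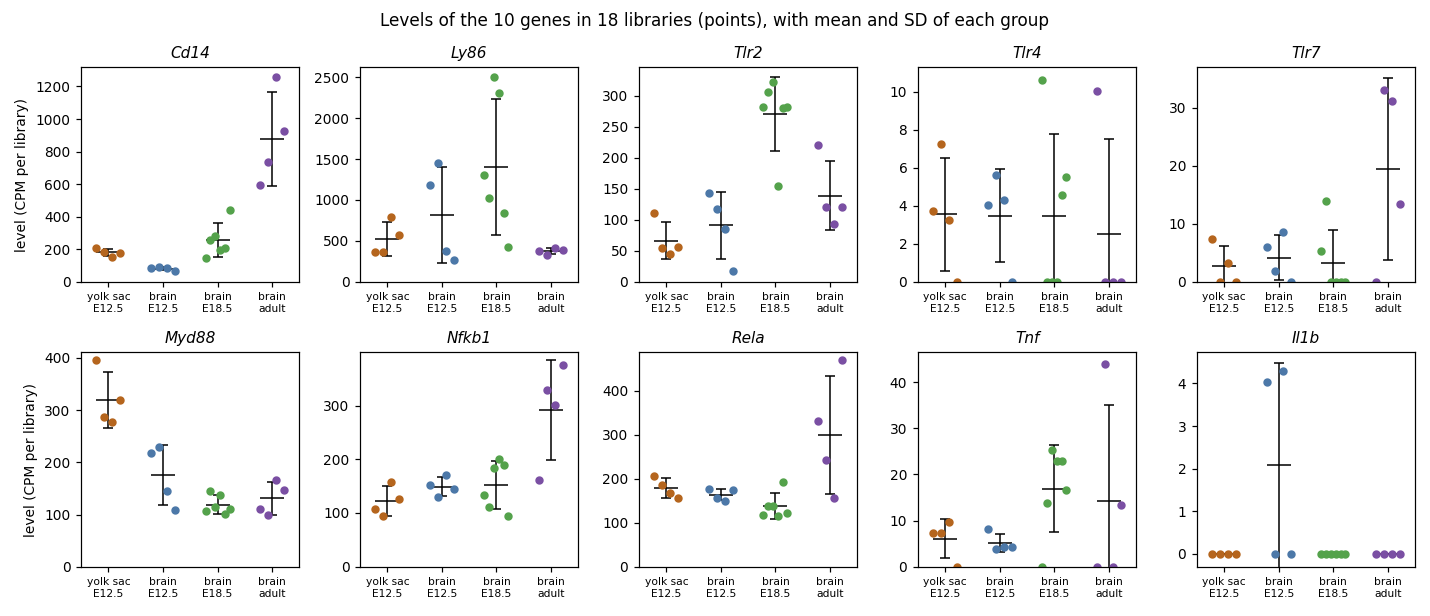
Level of each of the 10 genes (y axis, CPM) in each of 18 libraries (points), by group (x axis), with the mean (long bar) and SD (error bar) of the group. Cd14 is highest in adult brain at 593 to 1257 CPM, Tlr2 at E18.5, and Il1b has UMIs in 2 libraries of E12.5 brain only.

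Ly86 varied more between plates than the other 5 tested genes in each of the 3 embryonic groups and gave only a fragile difference between ages. In E12.5 brain the 4 libraries held 1179, 1456, 381 and 263 CPM, the first 2 from one plate and the last 2 from another. At E18.5 the libraries ran from 420.4 over a median of 1164 to 2505 CPM, with libraries 3 and 4 of one plate highest at 2505 and 2311 CPM. The adult libraries lay together at 372, 329.7, 416 and 389 CPM. The yolk sac libraries reached 359, 363, 793 and 575 CPM. Each adult library was below each E18.5 library, and the lowest E18.5 library (420.4 CPM) was close to the highest adult one (416 CPM). By plate sums the highest plate exceeded the lowest 4.10-fold in E12.5 brain, 3.68-fold at E18.5, 1.91-fold in yolk sac and 1.15-fold in the adult. In E12.5 brain and in yolk sac the plates were also of different sequencing batches, so plate and batch cannot be told apart there. Within the sequencing batch that these groups share, brain libraries 3 and 4 held 381 and 263 CPM and yolk sac libraries 1 and 2 held 359 and 363 CPM.

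Ly86 fell from E18.5 to the adult by 1.87 on the log2 scale (SE 0.59, edgeR adjusted p = 0.0354). This call was lost in 10 of 22 alternatives. Summed per plate, the difference was -1.92 with adjusted p = 0.262. It was also lost without E18.5 library 3 (-1.64, adjusted p = 0.0626) or 4 (-1.67, adjusted p = 0.064), and without any one of the 4 adult libraries, where adjusted p ran from 0.0718 to 0.0831. The differences of yolk sac and of E18.5 brain from E12.5 brain were -0.61 (SE 0.55, adjusted p = 0.572) and 0.77 (SE 0.51, adjusted p = 0.302). No order of the 3 embryonic groups could therefore be given for Ly86.

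**Figure D2:**
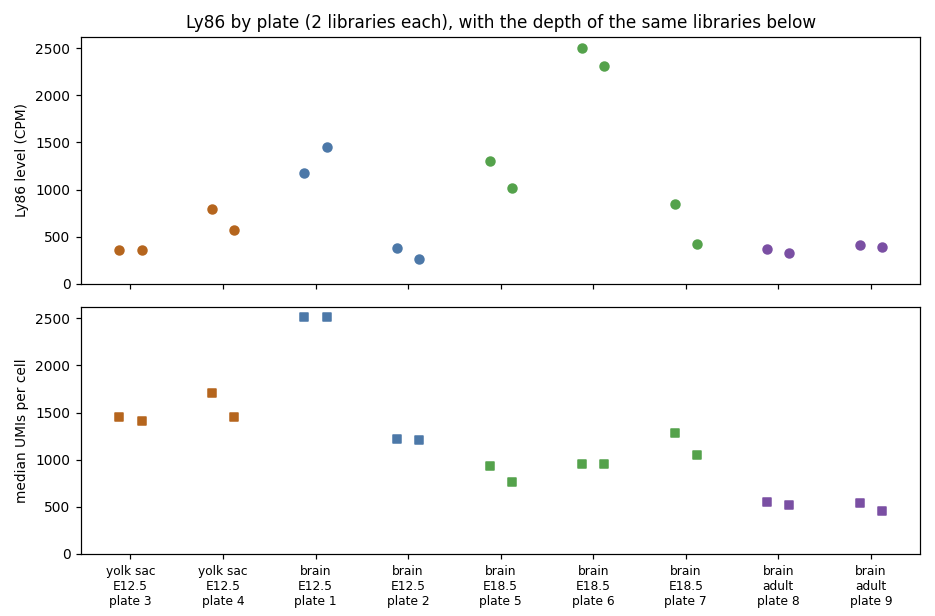
Ly86 level in CPM (upper panel) and median UMIs per cell (lower panel) of each library (y axes), arranged by plate (x axis, 2 libraries a plate). Plates of E12.5 brain differ 4.10-fold, and the libraries of the third E18.5 plate lie at 845 and 420.4 CPM. The deeper plate holds more Ly86 in E12.5 brain and in yolk sac, while at E18.5 the plate with the most Ly86 is not the deepest.

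Tlr2, the surface receptor for bacterial lipoproteins, had its highest mean at E18.5. The 4 libraries of E12.5 brain held 144, 118, 85.7 and 17.5 CPM, and those of the yolk sac 111, 54.4, 45.3 and 55.6 CPM. At E18.5 the libraries ran from 155 over a median of 282 to 322 CPM. The adult libraries held 221, 121, 93.5 and 121 CPM. No E18.5 library overlapped E12.5 brain, and 1 adult library lay inside the E18.5 range. Tlr2 rose from E12.5 to E18.5 by 1.48 on the log2 scale (SE 0.31, edgeR adjusted p = 0.000778). With sequencing batch as a covariate this log2 difference was 3.03 (adjusted p = 0.000300) in place of 1.48.

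The adult level of Tlr2 was below E18.5 by 0.91 on the log2 scale, which did not pass (SE 0.36, adjusted p = 0.0702). It passed in 6 of 22 alternatives, for example without E18.5 library 4 (-1.04, adjusted p = 0.0311) or adult library 1 (-1.27, adjusted p = 0.0287). Adult and E12.5 brain differed by 0.57 (SE 0.40, adjusted p = 0.262), and by 2.13 (adjusted p = 0.0118) with batch as a covariate. Yolk sac and E12.5 brain differed by -0.49 (SE 0.37, adjusted p = 0.455), and the sign was positive with batch as a covariate (0.66). In the order of means, E18.5 brain, adult brain, E12.5 brain and yolk sac, no neighbours were separated by a test.

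Tlr4, the lipopolysaccharide receptor, and Tlr7, the endosomal sensor of single-stranded RNA, were near the limit of detection in every group. Tlr4 gave 4 UMIs in yolk sac, 6 in E12.5 brain, 4 at E18.5 and 1 in the adult, each in a different cell. Tlr7 gave 3, 6, 3 and 7 UMIs in the same order, again 1 to a cell. Both were under the count filter of the test. Without that filter neither passed in any comparison. The largest difference was that of Tlr7 between adult and E18.5, 2.38 on the log2 scale (SE 1.11, edgeR adjusted p = 0.205), with adult libraries at 0, 33.0, 31.2 and 13.4 CPM and 4 of 6 E18.5 libraries at 0. A group total of 3 UMIs, taken as the floor, corresponds to 2.67 CPM in yolk sac, 2.01 in E12.5 brain, 2.82 at E18.5 and 8.30 in the adult, so the adult libraries could show the least.

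Myd88, the shared adaptor, had its highest mean in yolk sac. Its level there was 396, 287, 278 and 319 CPM, above the 218, 230.2, 146 and 109 CPM of the E12.5 brain libraries. The means were 319.9 ± 53.6 and 176 ± 58.0 CPM (SD, n = 4 each), a difference of 0.87 on the log2 scale (SE 0.22, edgeR adjusted p = 0.0029). Within the shared sequencing batch, yolk sac libraries 1 and 2 held 396 and 287 CPM against 146 and 109 CPM in brain libraries 3 and 4. With libraries thinned to one total the difference was 0.81 and did not pass (adjusted p = 0.108), and with batch as a covariate it was 1.41 (adjusted p = 0.000283). The embryonic and border macrophage markers moved in the same direction between these tissues, as given above, and their part in this difference was not tested.

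Later brain ages held 101 to 146 CPM of Myd88 at E18.5 (median 112) and 111, 98.9, 166 and 148 CPM in the adult. The libraries of these ages overlapped. Myd88 fell from E12.5 to E18.5 by 0.60 on the log2 scale (SE 0.22, edgeR adjusted p = 0.0382), a call that was lost in 15 of 21 alternatives. Summed per plate the difference was -0.55 (adjusted p = 0.218), and with batch as a covariate it was 0.037 (adjusted p = 0.977). It was also lost without library 1 (-0.47, adjusted p = 0.16), 2 (-0.45, adjusted p = 0.183) or 3 (-0.63, adjusted p = 0.0517) of E12.5 brain, and without each E18.5 library but the second, with adjusted p from 0.0579 to 0.116. Adult and E18.5 brain differed by 0.17 (SE 0.27, adjusted p = 0.719). Adult and E12.5 brain differed by -0.43 (SE 0.27, adjusted p = 0.205).

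Nfkb1 and Rela, which encode the p50 and p65 subunits of NF-kB, were both higher in the adult brain than at E18.5 or E12.5. Nfkb1 was at 161, 329.7, 301 and 376 CPM in the adult libraries. At E18.5 it ran from 94.0 over a median of 158 to 201 CPM. E12.5 brain held 152, 129, 171 and 144 CPM and yolk sac 107, 94.3, 159 and 126 CPM. Adult library 1 lay inside the range of the embryonic brain libraries and the other 3 lay above it. Nfkb1 rose from E18.5 to the adult by 0.95 on the log2 scale (SE 0.25, edgeR adjusted p = 0.00466) and was 0.99 higher in the adult than at E12.5 (SE 0.26, adjusted p = 0.0028). The first of these was 0.88 (adjusted p = 0.0532) summed per plate and 0.73 (adjusted p = 0.152) without adult libraries 2 and 3, the ones richest in granulocyte precursor transcripts. The second was 0.35 (adjusted p = 0.666) with batch as a covariate and 0.75 (adjusted p = 0.0993) without those libraries.

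Rela was at 332, 242, 156 and 469 CPM in the adult libraries, against 115 to 193 CPM at E18.5 (median 130.3). E12.5 brain held 176, 155, 149.96 and 175 CPM and yolk sac 207, 185, 168 and 156 CPM. Adult library 3 lay inside the embryonic range, while library 4 was highest. Rela rose from E18.5 to the adult by 1.13 on the log2 scale (SE 0.24, edgeR adjusted p = 0.0006), and by 1.48 without adult libraries 2 and 3 (adjusted p = 0.000105). The adult exceeded E12.5 brain by 0.88 (SE 0.25, adjusted p = 0.00531). That call was lost in 4 of 20 alternatives, among them without adult library 4 (0.61, adjusted p = 0.0731) and with batch as a covariate (1.12, adjusted p = 0.0593). Between the embryonic groups neither gene passed, with yolk sac differing from E12.5 brain by -0.24 for Nfkb1 (95% interval -0.74 to 0.26) and 0.17 for Rela (-0.30 to 0.63). E18.5 differed from E12.5 brain by 0.03 for Nfkb1 (-0.43 to 0.49) and -0.26 for Rela (-0.70 to 0.19).

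**Figure D3:**
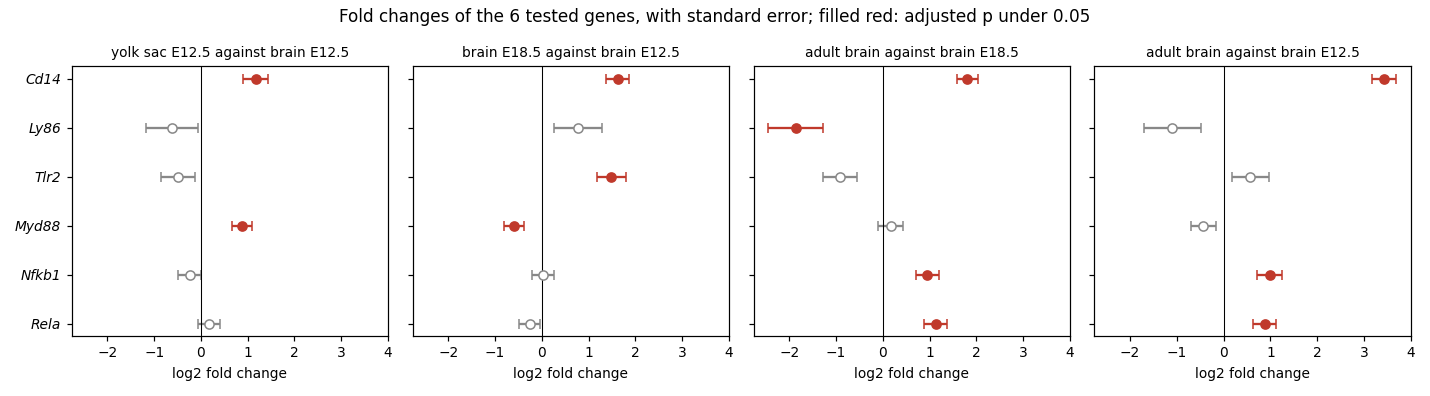
Log2 fold change (x axis) of the 6 tested genes (y axis) in the 4 comparisons, with the standard error as a bar and red filled points for an adjusted p under 0.05. Cd14 is to the right of 0 and filled in every panel, while Nfkb1 and Rela are filled in the panels with adult brain only.

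Of the 6 tested genes, 2 were higher and 0 lower in yolk sac than in E12.5 brain, where 15.9% of all 4883 tested genes were called, 7.04% higher and 8.81% lower. From E12.5 to E18.5 brain 2 were higher and 1 lower, beside 24.5% of all tested genes called, 11.1% higher and 13.4% lower. From E18.5 to adult brain 3 were higher and 1 lower, beside 21.5% called, 10.3% higher and 11.2% lower. Between E12.5 and adult brain 3 were higher and 0 lower in the adult, beside 38.6% called, 17.8% higher and 20.7% lower. The groups' libraries lay fully apart for 2, 2, 2 and 1 of the 6 genes in these comparisons, beside 19.9%, 18.7%, 16.8% and 34.3% of all tested genes. The median log2 fold change of the 6 was -0.04, 0.40, 0.56 and 0.72 in these comparisons, beside -0.05, -0.03, -0.03 and -0.07 over all tested genes. The last 3 comparisons share libraries and are not independent of each other. The 4 genes that did not reach the filter are outside these counts.

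Tnf, the cytokine tumor necrosis factor, was rare in every group. It gave 7 UMIs in 6 cells of the yolk sac, 8 UMIs in 5 cells of E12.5 brain, 18 UMIs in 17 cells at E18.5 and 5 UMIs in 3 cells of the adult. As a share of cells this was 0.894%, 0.696%, 1.71% and 0.475%, and the exact (Clopper-Pearson) 95% intervals of 0.329 to 1.94%, 0.226 to 1.62%, 1.00 to 2.73% and 0.0982 to 1.38% overlapped. These intervals cover counting error only, and the shares depend on depth, which was lowest in the adult. In the same order of groups, mean levels were 6.09, 5.12, 16.9 and 14.3 CPM. With cells thinned to 300 UMIs the shares were 0.145%, 0.135%, 0.943% and 0.328% (means of libraries). At E18.5, 5 of 6 libraries held Tnf, at 13.9 to 25.2 CPM, and library 1 held none. In E12.5 brain a single cell carried 4 of the 8 UMIs, and in the adult a single cell carried 3 of 5. Without the count filter the difference between E18.5 and E12.5 brain was 1.52 on the log2 scale and did not pass (SE 0.80, edgeR adjusted p = 0.262).

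Il1b, which encodes interleukin-1 beta, gave 3 UMIs in all, in 3 cells of E12.5 brain (2 in library 1 and 1 in library 3). No UMI was found in 671 yolk sac cells, 992 cells at E18.5 or 631 adult cells. At a limit of 3 cells these zeros allow shares of cells with a UMI of up to 0.447%, 0.302% and 0.475%. The empty wells, with a median of 24 UMIs, held no UMI of Tnf or Il1b. Whether single UMIs of the rare genes come from the sorted cell or from such free RNA was not tested. Levels of Tnf and Il1b therefore could not be ranked between groups at this depth.

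Shares of cells with a UMI depend on depth, so each cell was thinned to 300 UMIs. Cd14 was then found in 1.81% of cells in E12.5 brain, 5.50% in yolk sac, 6.18% at E18.5 and 22.9% in the adult (means of libraries), against 12.8%, 20.9%, 20.7% and 35.5% of cells unthinned. The Ly86 share was 14.7% in yolk sac, 18.1% in E12.5 brain, 29.4% at E18.5 and 9.50% in the adult, with single libraries from 3.45% to 51.6%. Tlr2 reached 7.90% at E18.5 and 2.97 to 3.94% in the other groups. Myd88 was in 7.45% of yolk sac cells and 2.56% of adult cells. Nfkb1 and Rela were in 7.18% and 7.82% of adult cells, against 3.06 to 3.75% and 3.77 to 5.47% in the embryonic groups. The order of groups by thinned share was the order by mean CPM for Cd14, Ly86, Tlr2 and Rela, but not for Myd88 and Nfkb1. These shares are a description of the thinned cells, with no test.

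**Figure D4:**
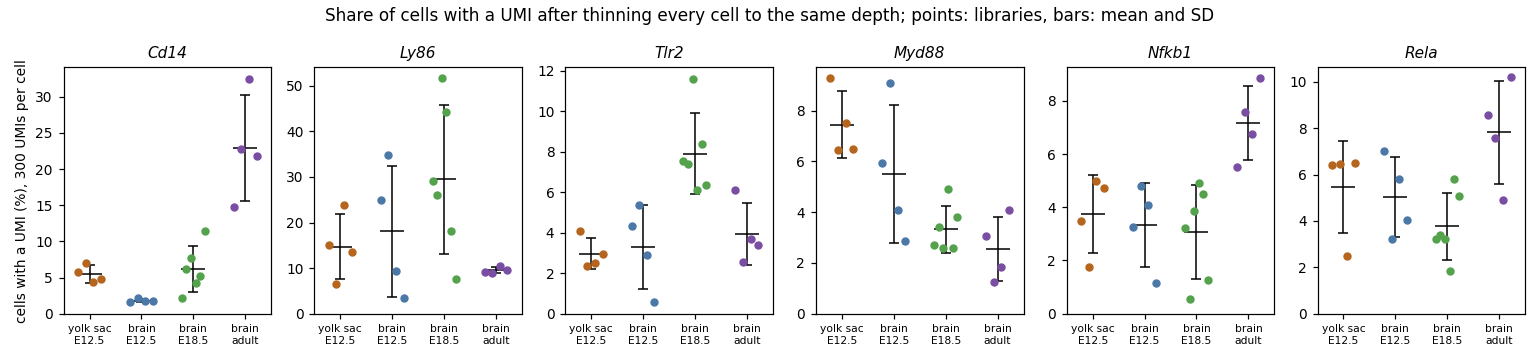
Share of cells with a UMI (y axis, percent) of the 6 tested genes after thinning each cell to 300 UMIs, by group (x axis). Points are libraries and bars the mean and SD, with adult Cd14 at a mean of 22.9% and Ly86 at E18.5 spread from 7.64% to 51.6%.

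After thinning to 300 UMIs, most cells held none or 1 of these transcripts. Such counts depend on depth and on the share of cells that each gene has by itself. The number expected from those shares was not computed. At 300 UMIs, 63.9% of yolk sac cells, 67.8% of E12.5 brain cells, 54.5% of E18.5 cells and 54.5% of adult cells held none of the 10 genes. Cells with 2 of the genes made up 3.28%, 4.74%, 7.66% and 8.72%, and cells with 3 at most 0.706%. Co-detection of pairs was close to the limit of such counts. At E18.5 Cd14 was found in 9.40% of 234 cells with a UMI of Ccl3, a chemokine of activated macrophages, and in 5.01% of 758 cells without, higher in 4 of 6 libraries. For Ccl4, a related chemokine, the shares were 16.0% of 50 cells and 5.52% of 942 cells, again higher in 4 of 6 libraries. Cd14 was found in 0 of 72 cells with a UMI of the cell cycle genes Mki67, Top2a, Ccnb1 or Cdk1 and in 60 of 920 cells without. At the same age Tnf was found in 5 of 234 cells with and 4 of 758 cells without Ccl3. In the adult, 2 of 25 cells with Tlr2 and 143 of 606 cells without it held Cd14. These counts describe the pooled cells and were not tested.

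**Figure D5:**
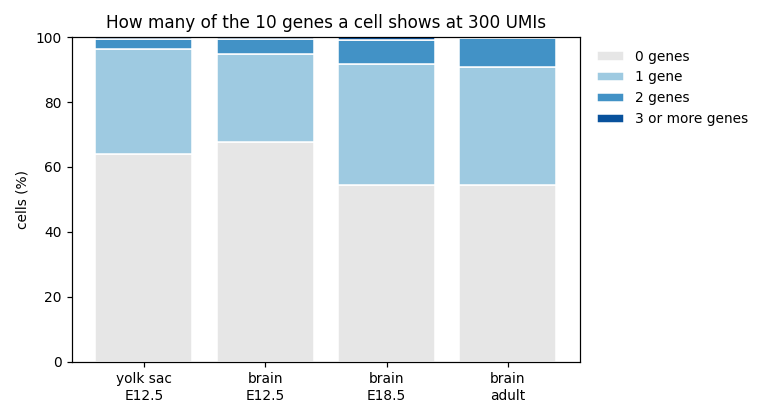
Share of cells (y axis, percent) that show 0, 1, 2 or 3 and more of the 10 genes at 300 UMIs per cell, by group (x axis). Cells with none make up 63.9%, 67.8%, 54.5% and 54.5% of yolk sac, E12.5, E18.5 and adult brain.

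Of 16 further Toll-like receptors and cofactors, 5 were tested. Tlr13, an endosomal receptor for bacterial ribosomal RNA, was lower in yolk sac than in E12.5 brain (40.3 ± 14.2 against 106 ± 62.6 CPM, a log2 difference of -1.41, SE 0.40, edgeR adjusted p = 0.0107). This call was lost in 4 of 19 alternatives, summed per plate (adjusted p = 0.0703), with batch as a covariate (-0.82, adjusted p = 0.444), thinned and without library 2 of E12.5 brain. In the brain Tlr13 fell from E18.5 to the adult by 1.54 (adjusted p = 0.0161), a call lost in 4 of 22 alternatives, thinned and without adult library 2, 3 or both. Unc93b1, which carries endosomal receptors to their compartment, rose from 843 ± 62.8 CPM at E12.5 to 1408 ± 166 CPM at E18.5 (a log2 difference of 0.73, SE 0.14, adjusted p = 9.16e-05). The chaperone Cnpy3 rose from E18.5 to the adult by 0.79 (SE 0.23, adjusted p = 0.00912), a call lost in 6 of 22 alternatives, among them plate sums and leaving out adult library 2. In the comparison of adult with E12.5 brain 2 of the 5 were higher and 0 lower, beside 17.8% and 20.7% of all tested genes. Tlr8 and Tlr11 had no UMI in any group, and Cd36 had none in any brain group.

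Of 20 adaptors, kinases and ubiquitin ligases, 12 were tested and 1 was called in each of the first 3 comparisons. Of all tested genes, 15.9%, 24.5% and 21.5% were called there. Irf7, which drives interferon genes, reached 393 ± 205 CPM in yolk sac against 39.7 ± 18.8 CPM in E12.5 brain, higher by 3.44 on the log2 scale (SE 0.56, edgeR adjusted p = 0.000265). The kinase Irak2 was higher at E18.5 than at E12.5 (1.15, SE 0.40, adjusted p = 0.0323), but its sign turned with batch as a covariate (-1.06). Irf5, a transcription factor downstream of MyD88, rose from 199 ± 46.6 CPM at E18.5 to 539 ± 99.8 CPM in the adult (1.46, SE 0.19, adjusted p = 1.25e-07). Against E12.5, the adult was higher for 2 of these 12 genes, Irak2 and Irf5, beside 17.8% of all tested genes. The Irak2 call was lost or reversed in 9 of 19 alternatives there and in 7 of 21 for E18.5 against E12.5, among them plate sums, thinning and leaving out library 1 of E12.5 brain in both, library 3 of E12.5 brain or library 3 or 4 of E18.5 brain in the latter, and library 1 or 3 of the adult in the former. The Irak2 row joins an older spelling of the same symbol.

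Of 9 other NF-kB subunits, inhibitors and kinases, 6 were tested, and 4 were higher and 0 lower in adult than in E12.5 brain. Of all tested genes, 17.8% were higher and 20.7% lower there. Several of the 4 calls were lost in alternatives, which were not counted for Nfkbib in this comparison. The 4 genes are Rel, Relb, Nfkbib and Nfkbie, at log2 fold changes of 1.36 (SE 0.51, edgeR adjusted p = 0.0311), 2.58 (SE 0.63), 0.99 (SE 0.34) and 1.54 (SE 0.54). Rel was lost in 11 of 19 alternatives, among them batch as a covariate (0.047) and leaving out library 2, 3 or 4 of E12.5 brain or library 2 or 3 of the adult. Relb was lost in 2 of 18, with batch as a covariate (1.08, adjusted p = 0.557) and thinned (1.65), and Nfkbie in 5 of 12, among them batch as a covariate (adjusted p = 0.268) and leaving out adult library 1. From E18.5 to the adult 1 of the 6 passed, beside 21.5% of all tested genes. It was Nfkbib, which encodes the inhibitor IkB beta (1.23, SE 0.34, adjusted p = 0.00735), a call lost in 5 of 22 alternatives, among them plate sums and leaving out adult library 2. None of the 6 passed between E12.5 and E18.5, beside 24.5% of all tested genes. In yolk sac Bcl3, a nuclear IkB protein, was higher than in brain (103 ± 18.1 against 23.0 ± 9.78 CPM, a log2 difference of 2.25, SE 0.44, adjusted p = 0.00013).

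Of 13 inhibitors and feedback genes, 6 were tested, and 4 were higher and 0 lower at E18.5 than at E12.5, where 11.1% of all tested genes were higher. Tnip1 (0.10) and Tollip (0.35) did not pass. Zfp36, which destabilises Tnf messenger RNA, rose from 35.3 ± 10.5 to 496 ± 133 CPM (a log2 difference of 3.77, SE 0.24, edgeR adjusted p = 1.33e-15), the phosphatase gene Dusp1 rose by 4.83 (SE 0.41) and Socs3 by 2.93 (SE 0.46). With batch as a covariate the Dusp1 difference was 4.44 and did not pass (adjusted p = 0.334). From E18.5 to the adult 3 of the 6 rose further, Nfkbia, Zfp36 and Socs3, where 10.3% of all tested genes were higher. The Socs3 call was lost in 11 of 21 alternatives, among them leaving out library 1 or 4 of E18.5 brain or library 1, 2 or 3 of the adult. Nfkbia, which encodes the NF-kB inhibitor IkB alpha, rose from 156 ± 68.0 to 633 ± 165 CPM (2.04, SE 0.25, adjusted p = 2.77e-08). The median log2 fold change of the list was 2.02 from E12.5 to E18.5. Between yolk sac and E12.5 brain 0 of the 6 passed, beside 15.9% of all tested genes. Several of these genes, such as Zfp36 and Dusp1, also respond quickly to tissue handling, and the immediate early sums given above moved with them. That part was not tested.

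Of the brain ages, E18.5 held the most of the chemokines that could be tested, apart from Cxcl16. Of 21 further cytokines and chemokines, 6 were tested. Ccl2, Ccl3, Ccl4 and Ccl5 were higher at E18.5 than at E12.5, beside 11.1% of all tested genes. The same 4 were lower in the adult than at E18.5, beside 11.2% of all tested genes. The rows of Ccl3 and Ccl4 join several names, and their calls between brain ages were not followed through the alternatives. Ccl2, which attracts monocytes, was at 4.01 ± 6.83, 90.9 ± 35.3 and 11.1 ± 8.36 CPM at the 3 ages. The log2 fold change was 3.98 (SE 0.53, edgeR adjusted p = 4.01e-07) for the rise and -2.93 (SE 0.68, adjusted p = 0.00135) for the fall. Without adult libraries 2 and 3 the falls of Ccl2 (-2.39, adjusted p = 0.0581) and Ccl5 (adjusted p = 0.116) did not pass, nor did the rise of Ccl5 with batch as a covariate (1.77, adjusted p = 0.695). Ccl5 had 57.7 ± 31.8 CPM at E18.5 and no UMI among 361302 in the adult. In yolk sac 3 of the 6 were higher and 0 lower than in E12.5 brain, beside 7.04% and 8.81% of all tested genes. They were Il18 (a log2 difference of 2.03, SE 0.41, edgeR adjusted p = 0.00023), Ccl2 and the Ccl3 row, which joins a second name. The Ccl3 call was lost without yolk sac library 3, without E12.5 brain library 3 and in the fit of 2 groups. Il6, Il10, Il12b, Il23a, Cxcl1 and Ifnb1 had no UMI in E12.5 brain, and Il10, Il23a, Lta, Cxcl1 and Ifnb1 had none in any group.

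Of 9 inflammasome and processing genes, 5 were tested. Gsdmd, the pore protein that releases interleukin-1, rose from 85.0 ± 19.5 to 169.7 ± 12.5 CPM between E12.5 and E18.5 (a log2 difference of 1.00, SE 0.22, edgeR adjusted p = 0.000832). With batch as a covariate it was 0.86 for Gsdmd and did not pass (adjusted p = 0.31). Pycard, the adaptor of inflammasomes, was 0.64 lower in adult than in E12.5 brain (adjusted p = 0.00346), and with batch as a covariate this did not pass (-0.65, adjusted p = 0.0841). Casp1, which cleaves pro-interleukin-1 beta, had no UMI in the adult. Of 5 receptors for TNF and interleukin-1, 2 were tested, and Tnfrsf1a was higher in adult than in E12.5 brain (521 ± 163 against 375 ± 31.5 CPM, 0.51, SE 0.19, adjusted p = 0.0342). The Tnfrsf1a call was lost in 12 of 20 alternatives, among them plate sums, batch as a covariate, thinning and leaving out library 1, 2 or 3 of E12.5 brain or library 1 or 2 of the adult.

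Genes whose level over the 18 libraries followed each tested gene most closely were picked from 3959 candidates by Pearson's r of log2 CPM. These values describe points that share groups, plates and depth. Cd14 was closest to Pmp22 (r = 0.93), Tspan7 (0.92) and Cables1 (0.92), and Pmp22 stood at 2.59 CPM in E12.5 brain and 559 CPM in the adult. Tlr2 was closest to Lamp2 (0.84), Gm13889 (0.83) and Timp2 (0.82). Myd88 was closest to Adam19 (0.93), Ahnak (0.92) and Wwp1 (0.89), which were also highest in yolk sac. Ly86 was closest to Bmpr2 (0.91), Eef1a1 (0.90) and Pnp (0.90). Nfkb1 was closest to Numa1 (0.85), Bnip3l (0.85) and AK017040 (0.82), and Rela to Ttc7 (0.83), Dusp7 (0.79) and Crlf2 (0.78). None of the 6 tested genes was among the 3 closest to another of them, and the 4 genes under the filter could not be listed. A place among the 3 closest of 3959 does not measure how far these genes move together.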

How the data were processed

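The authors deposited 1 table of UMI counts for all libraries, with genes in rows and wells in columns, and a well annotation, whose amplification batch assigned each well to its library. Per the submitters' processing notes the reads were demultiplexed with bcl2fastq 2.15.0.4 and the genome build was mm9. How reads were mapped to genes and merged into UMIs is not given in the sources used here. No well held over 256 UMIs of any gene, and the 10 genes reached at most 27 in a cell. Of 27297 gene rows, 2109 join several symbols, and all 10 genes had a row of their own.

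Wells holding 1 cell by the well annotation were kept at 300 or more UMIs, which left 3012 of 3420 wells and 18 libraries. No doublet caller was run, and no well ID was shared between libraries. Counts were summed per library, and CPM is a gene's sum divided by the library total, times 1000000. Differences were tested on the summed counts with edgeR 4.0.16 (R 4.3.3, limma 3.58.1): TMM scaling, the filterByExpr filter, a robust quasi-likelihood fit of all 18 libraries, and Benjamini-Hochberg adjustment over 4883 genes at 0.05. The SE is the absolute log2 fold change divided by the square root of F. The test script was first tested on simulated counts. Chi-square per degree of freedom between libraries of a group was 1.44 to 4.60, so none was a copy of another. Replicate numbers follow accession order and pair nothing.

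Alternatives were RLE size factors, DESeq2 1.42.0, other filters and cell minimums, sums per plate, sequencing batch as a covariate, libraries thinned to one total, fits of 2 groups and leaving out each library. Dropping cells with 5 or more granulocyte precursor UMIs, a set that took in Ly6c2, and dropping adult libraries 2 and 3, were chosen after seeing the data. The 10 genes and all lists were chosen with earlier results of these data known. Of each list and comparison, up to 3 called genes of largest fold change with at least 30 CPM were picked, or all called genes where 3 or fewer were called. Not all of their fold changes are printed, and none of those of the immediate early genes. For each tested gene the 3 genes of most similar pattern at 50 or more CPM were named. Nfkbib in the comparison of adult with E12.5 brain and the genes at 0 were named after their values were seen. Promoters came from RefSeq, whose build differs from that of the counts, and no coordinates were joined between them.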

Additional observations from a re-analysis of the deposited data

Results flagged for a closer look

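In 4 of the 24 sets of libraries tested (6 genes in 4 groups), 1 library lay far from the others of its group by Dixon's criterion, which chance gives in about 1 of 20 sets. Cd14 was at 65.7 CPM in library 4 of E12.5 brain, below the 85.7 to 88.0 CPM of the other 3. Tlr2 was at 111 CPM in library 1 of the yolk sac, above the 45.3 to 55.6 CPM of the other 3. Tlr2 was at 155 CPM in library 4 of E18.5 brain, below the 280.3 to 322 CPM of the other 5. Rela was at 193 CPM in library 5 of E18.5 brain, above the 115 to 139 CPM of the other 5.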

How the results depend on the processing

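Over 19 to 22 alternatives per comparison, 451 of 492 fold changes of the 6 tested genes kept their side of the threshold and, where called, their direction. Of the others, 33 calls were lost, 7 were gained and 1 changed sign, that of Myd88 between E18.5 and E12.5 brain with batch as a covariate (0.037). Cd14 kept its call in every alternative of the 4 comparisons, Tlr2 in all 21 of E18.5 against E12.5 brain and Rela in all 22 of adult against E18.5 brain. Of 975 values of the genes picked from the other lists, 874 kept their call, 99 lost it and 2 changed sign, both of Irak2 with batch as a covariate (-1.06 and -0.89). The 975 values take in immediate early genes, whose fold changes are not printed here. Genes called between yolk sac and E12.5 brain numbered 774, 493 summed per plate and 419 with libraries thinned to one total, where 1 of the 10 genes was called higher. For E18.5 against E12.5 brain they numbered 1195, 660 per plate, 332 with batch as a covariate and 618 thinned. There 0 of the 10 were called lower in these 3 settings, with RLE factors, at a mean of 10 or more counts, in the fit of 2 groups and with DESeq2. For adult against E18.5 brain they numbered 1050, 698 per plate and 674 without adult libraries 2 and 3. There 0 of the 10 were called lower per plate, at 500 or more UMIs per cell and without those libraries, and 2 with batch as a covariate, thinned and in the fit of 2 groups. For adult against E12.5 brain they numbered 1883, and 910 with batch as a covariate. Leaving out each replicate in turn gave 625 to 727, 930 to 1118, 876 to 1033 and 1710 to 1797 called genes in the 4 comparisons, and 2 to 2, 2 to 2, 3 to 3 and 2 to 3 of the 10 genes called higher and 0 to 0, 0 to 1, 0 to 1 and 0 to 0 lower. Fewer samples enter the fits per plate and without libraries, and fewer counts the thinned fit. The cause of the other changes was not tested. Of 40 shares of cells, 24 moved when cells were thinned to 500 UMIs, which leaves out cells below that depth, in place of 300. No paired analysis was possible because the labels give no replicate numbers. The adult floor of 8.30 CPM limits what can be said of Tlr4, Tlr7, Tnf and Il1b there.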
